A study of Homo sapiens with 14 samples.

Results

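Of 11963 genes measured with a probe set of their own in RS4;11 leukemia cells, 14 were higher after 8 h of dexamethasone than both before treatment and at 24 h. They were chosen by these same values: a mean log2 value at 8 h at least 0.4 above that of untreated cells, a mean at 24 h at least 0.4 below that at 8 h, and a mean of at least 6 at 8 h. Thus 21 genes met every threshold, and 7 metallothionein genes (MT1X, MT2A, MT1HL1, MT1H, MT1F, MT1G and MT1E) were left out by their symbols. Their near-identical sequences can share probes, which was not examined here. The 14 were VNN1, PIR, NQO1, NSDHL, MAP3K6, LIMK2, ATP1B1, NPY, GBP1, DDX60, CIRBP, MKI67, KIF23 and CCNE2. The step from untreated cells to 8 h and the step from 8 h to 24 h are therefore given as a description, with no test.

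RS4;11 is an established human cell line from acute lymphoblastic leukemia of B-cell precursors, in which the KMT2A gene is rearranged. All cells were first kept without hormone for 48 h and then received dexamethasone at 10 nM, a synthetic glucocorticoid, for 0 h (4 arrays, called untreated), 8 h (5 arrays) or 24 h (5 arrays). Cells left without dexamethasone for the same 8 h or 24 h were not among the arrays, so time in culture and dexamethasone cannot be told apart. The replicates are not stated to be separate cultures, so p-values measure the spread among these arrays, which may be technical. Marks in the sample descriptions place the arrays in 5 runs. Runs 1 to 4 hold 1 array of each group, with untreated replicate 4 and replicates 5 of both later times in run 4, and run 5 holds replicates 4 of the later times only.

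Glucocorticoids bind the glucocorticoid receptor (GR), a transcription factor that enters the nucleus and raises or lowers the transcription of many genes. In lymphoid leukemia cells this leads to arrest of the cell cycle and often to cell death. Some target transcripts stay high as long as the hormone is present, while others pass through a maximum and come back, and genes of successive cell cycle phases can shift as cells leave the cycle.

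Values are log2 expression values, on which a difference of 1 is 1 doubling of signal. Array medians lay between 6.03 and 6.11, and the lower quartiles between 4.11 and 4.23. The number of arrays limits the precision, since each gives 1 value per probe set. In RNA from a whole culture, fewer cells of a kind and less RNA per cell cannot be told apart. The 10 measured B-cell precursor markers summed to between 14.98 and 15.42 on the log2 scale on all arrays. By group the sum was 15.01 to 15.16 in untreated cells, 14.98 to 15.07 at 8 h and 15.32 to 15.42 at 24 h. Summed markers of other cells were lower, between 9.10 and 9.52 for T and NK cells, 7.24 and 7.54 for monocytes and granulocytes, and 7.93 and 8.52 for erythroid cells and platelets. The erythroid and platelet sum was higher at 8 h (8.19 to 8.35) than in untreated cells (7.93 to 8.08). At 24 h it stood at 8.28 to 8.52. Such a sum is carried by its brightest genes, and only 1 of the 6 measured was at least 0.4 higher at 8 h. The median of the 6 gene means was 5.46 in untreated cells, 5.42 at 8 h and 5.27 at 24 h. The part of these markers in the values of the 14 genes was not tested.

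Over all genes, 5.68% were at least 0.4 higher at 8 h than in untreated cells and 7.89% were at least 0.4 lower at 24 h than at 8 h, while the rule required both of all 14. The median difference over the 14 genes was 0.53 between 8 h and untreated cells, 0.55 between 8 h and 24 h, and 0.04 between 24 h and untreated cells. Over all genes these medians were −0.02, −0.01 and −0.01. Of the 14, 7 had every 8 h array above every untreated array (VNN1, MAP3K6, MKI67, LIMK2, NPY, CCNE2 and DDX60), a pattern found in 7.87% of all genes. In 9 of them every 24 h array lay below every 8 h array (PIR, MAP3K6, ATP1B1, GBP1, MKI67, LIMK2, CIRBP, CCNE2 and DDX60), as in 11.0% of all genes. Both patterns come from the contrasts that chose the genes, so nothing is read from these counts.

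**Figure D1:**
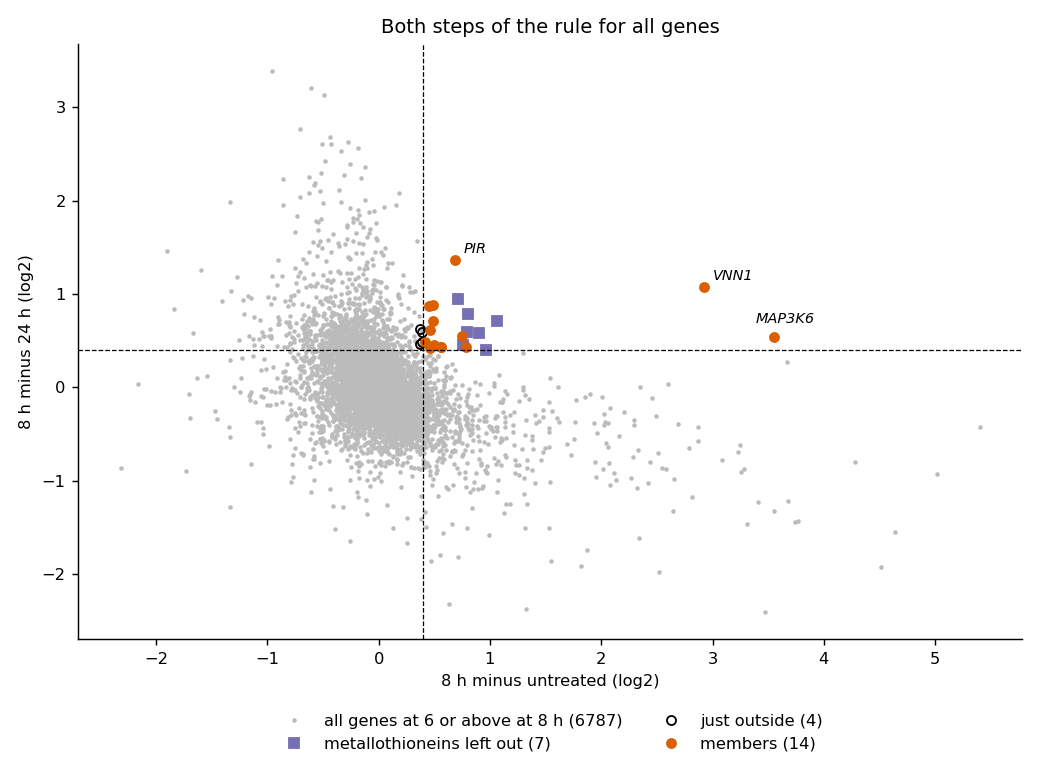
Each point is a gene with a mean log2 value of at least 6 at 8 h (6787 genes), with the 8 h minus untreated difference on the x axis and the 8 h minus 24 h difference on the y axis, both in log2 units. Dashed lines mark 0.4, filled circles the 14 genes, squares the 7 metallothioneins left out and open circles the 4 genes just outside; VNN1 and MAP3K6 lie far to the right of the other members.

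Only the difference between 24 h and untreated cells was tested, with limma over all 11963 genes and Benjamini-Hochberg adjustment. The rule does not set this difference, but it follows from both steps that chose the genes. Its arrays also enter the rule, so for the 14 genes the p-values are not independent of their choice. By this test 20.0% of all genes were higher at 24 h and 20.5% lower. Of the 14, 2 were higher (MAP3K6 and VNN1), 1 was lower (LIMK2), and 11 did not pass. With the run as a replicate block, PIR and GBP1 were also lower and CCNE2 higher (3 higher and 3 lower of the 14), while the calls over all genes went from 2394 to 2754 higher and from 2455 to 2838 lower. A difference that did not pass is not shown to be absent, and its interval is given with the gene where it bears on the account.

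**Figure D2:**
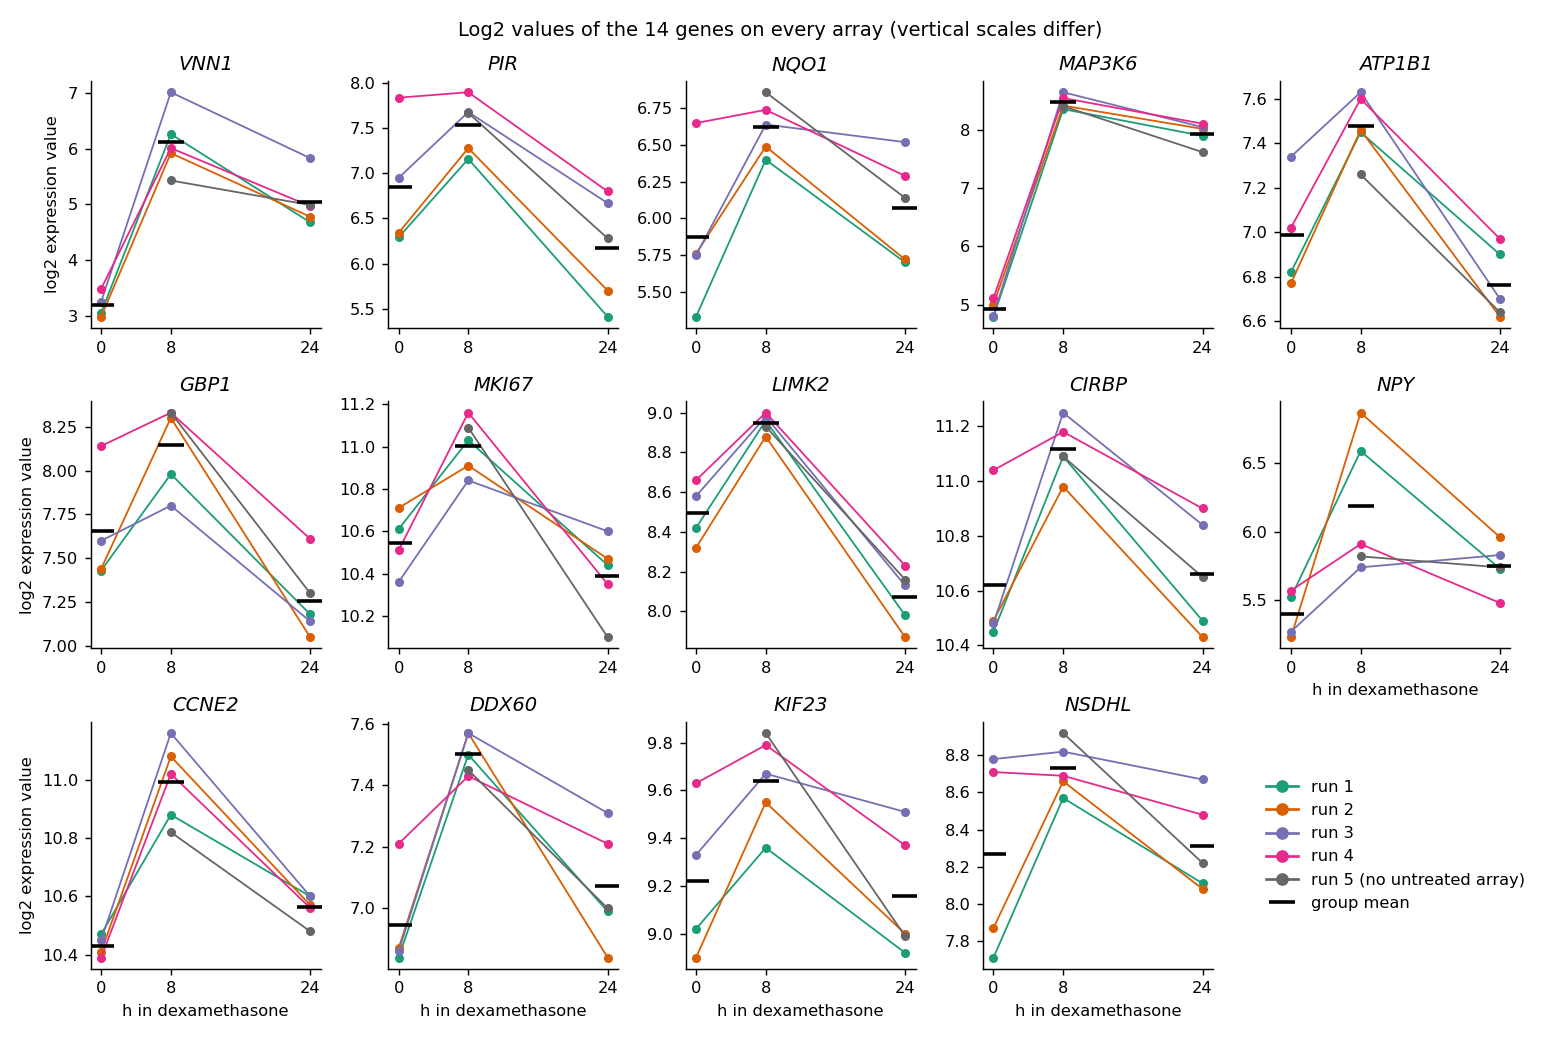
Log2 expression value (y axis, scales differ between panels) against hours in dexamethasone (x axis) for the 14 genes, 1 panel each. Lines join arrays of the same run and black bars are group means (n = 4, 5 and 5); the 8 h mean is the highest of the 3 in every panel.

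VNN1, PIR, NQO1 and NSDHL encode enzymes of vitamin, redox and sterol metabolism. VNN1, which encodes pantetheinase, an enzyme that releases pantothenate and cysteamine, read 3.06, 2.99, 3.26 and 3.49 in untreated replicates 1 to 4, 6.26, 5.92, 7.01, 5.43 and 6.01 in 8 h replicates 1 to 5, and 4.68, 4.78, 5.83, 4.99 and 4.97 in 24 h replicates 1 to 5. All later values below are listed in this order. Every 8 h array of VNN1 lay above every untreated array, while 24 h replicate 3 was above 8 h replicate 4. The mean log2 value was 3.20 ± 0.23 (SD, n = 4) before treatment, 6.13 ± 0.58 (SD, n = 5) at 8 h and 5.05 ± 0.46 (SD, n = 5) at 24 h. The untreated values lay under the lower quartile of their arrays, where array signals carry much background, so no fold is given for this gene. At 24 h VNN1 was still higher than in untreated cells by 1.84 (SE 0.26, 95% interval 1.29 to 2.40, limma with Benjamini-Hochberg adjusted p = 2.14e-05), with no overlap between the groups. VNN2, a neighbor of the same enzyme family, differed by 0.11 at 8 h and was higher at 24 h by 0.51 (SE 0.15, adjusted p = 0.00925 in the same limma fit).

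PIR encodes pirin, an iron-binding nuclear protein, and NQO1 a quinone reductase; both are known targets of the oxidative stress factor NRF2. PIR read 6.29, 6.34, 6.95 and 7.84 on the untreated arrays, 7.16, 7.28, 7.68, 7.67 and 7.90 on the 8 h arrays, and 5.41, 5.70, 6.67, 6.28 and 6.80 on the 24 h arrays. Untreated replicate 4 stood within the 8 h values, and all 24 h values lay below all 8 h values. The mean went from 6.85 ± 0.72 (SD, n = 4) to 7.54 ± 0.31 (SD, n = 5) and then to 6.17 ± 0.60 (SD, n = 5). Its 24 h mean differed from that of untreated cells by −0.68 (SE 0.31, 95% interval −1.35 to −0.01), which did not pass (limma with Benjamini-Hochberg adjusted p = 0.101). With the run as a replicate block the difference was −0.71 and passed (adjusted p = 0.000807 from limma). Within the 4 runs with an untreated array, the 24 h minus untreated difference of PIR lay between −1.04 and −0.28.

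NQO1 read 5.33, 5.76, 5.75 and 6.65 on the untreated arrays, 6.40, 6.49, 6.64, 6.86 and 6.74 on the 8 h arrays, and 5.70, 5.72, 6.52, 6.14 and 6.29 on the 24 h arrays. Untreated replicate 4 was above 8 h replicates 1 to 3, and 24 h replicate 3 above 8 h replicates 1 and 2. The 8 h mean was 1.68-fold that of untreated cells (6.63 ± 0.19 against 5.88 ± 0.56, SD, n = 5 and 4), and the 24 h mean was 6.07 ± 0.36 (SD, n = 5). The 24 h difference of 0.20 did not pass (95% interval −0.27 to 0.66, adjusted p = 0.537 in limma). Of 19 measured NRF2 targets, a list added after the data were seen, 4 were at least 0.4 higher at 8 h (PIR, NQO1, AKR1C3 and AKR1C1) and 3 at least 0.4 lower at 24 h than at 8 h (PIR, NQO1 and PGD). AKR1C3, which encodes an aldo-keto reductase, differed by 0.76 at 8 h and was higher by 1.47 at 24 h (SE 0.13, adjusted p = 9.46e-08 in limma). HMOX1, the heme oxygenase gene, differed by 0.07 at 8 h, and SLC7A11, a cystine transporter gene, by −0.78.

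NSDHL encodes a sterol dehydrogenase of late cholesterol synthesis and was the member closest to the threshold, with a difference of 0.42 between 8 h and 24 h. It read 7.71, 7.87, 8.78 and 8.71 on the untreated arrays, 8.57, 8.66, 8.82, 8.92 and 8.69 on the 8 h arrays, and 8.11, 8.08, 8.67, 8.22 and 8.48 on the 24 h arrays. Untreated replicates 3 and 4 stood within the 8 h values, and in 1 of 4 runs the 8 h array was not above the untreated array. The means were 8.27 ± 0.56 (SD, n = 4), 8.73 ± 0.14 (SD, n = 5) and 8.31 ± 0.26 (SD, n = 5), and the 24 h difference of 0.05 did not pass (adjusted p = 0.891 in limma). Among 15 measured genes of cholesterol synthesis, a list also added later, 3 were at least 0.4 higher at 8 h (NSDHL, IDI1 and SC5D) and 6 at least 0.4 lower at 24 h than at 8 h. At 24 h, 4 of the 15 were lower than in untreated cells, among them EBP (−1.02) and FDPS (−0.91), 2 were higher (SC5D at 0.46 and TM7SF2 at 0.58), and 9 did not pass.

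The kinase genes MAP3K6 and LIMK2 belonged to the 14 and both differed at 24 h. MAP3K6 encodes a stress-activated kinase of the ASK family that pairs with MAP3K5. It read 4.79, 5.0, 4.81 and 5.11 on the untreated arrays, 8.36, 8.42, 8.65, 8.41 and 8.55 on the 8 h arrays, and 7.90, 8.02, 8.05, 7.62 and 8.11 on the 24 h arrays. The 3 groups did not overlap. The means were 4.93 ± 0.16 (SD, n = 4), 8.48 ± 0.12 (SD, n = 5) and 7.94 ± 0.19 (SD, n = 5), so that the 8 h mean was 11.7-fold and the 24 h mean 8.07-fold that of untreated cells. The untreated values lay below the medians of their arrays, so these folds start from a dim signal. Of the log2 step, 84.9% remained at 24 h, a difference of 3.01 (SE 0.10, 95% interval 2.80 to 3.23, limma with Benjamini-Hochberg adjusted p = 8.36e-13). MAP3K5 differed by 2.29 at 8 h and was higher by 2.64 at 24 h (SE 0.09, adjusted p = 1.09e-12 in limma), with no step down. MAP2K6, which encodes a kinase downstream of both, was lower at 24 h (difference −0.88, SE 0.14, adjusted p = 7.30e-05 in limma). MAP2K4, from the same list of stress kinases and partners, was higher (difference 0.51, SE 0.09, adjusted p = 0.000263 in limma). MAPK8 and MAPK9 of that list did not pass. The list was added after the data were seen.

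LIMK2, whose product phosphorylates cofilin and so slows the turnover of actin filaments, read 8.42, 8.32, 8.58 and 8.66 on the untreated arrays, 8.96, 8.88, 8.98, 8.93 and 9.0 on the 8 h arrays, and 7.98, 7.87, 8.13, 8.16 and 8.23 on the 24 h arrays. The 3 groups did not overlap, with the 24 h arrays lowest. The means were 8.49 ± 0.15 (SD, n = 4), 8.95 ± 0.05 (SD, n = 5) and 8.07 ± 0.15 (SD, n = 5). LIMK2 was lower at 24 h than in untreated cells (difference −0.42, SE 0.08, 95% interval −0.60 to −0.24, limma with Benjamini-Hochberg adjusted p = 0.000585), and the difference was between −0.45 and −0.43 within each of the 4 runs. Its paralog LIMK1 was at 5.72, 6.13 and 6.52 in the means of the 3 groups, and higher at 24 h by 0.80 (SE 0.09, adjusted p = 2.25e-06 in limma).

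**Figure D3:**
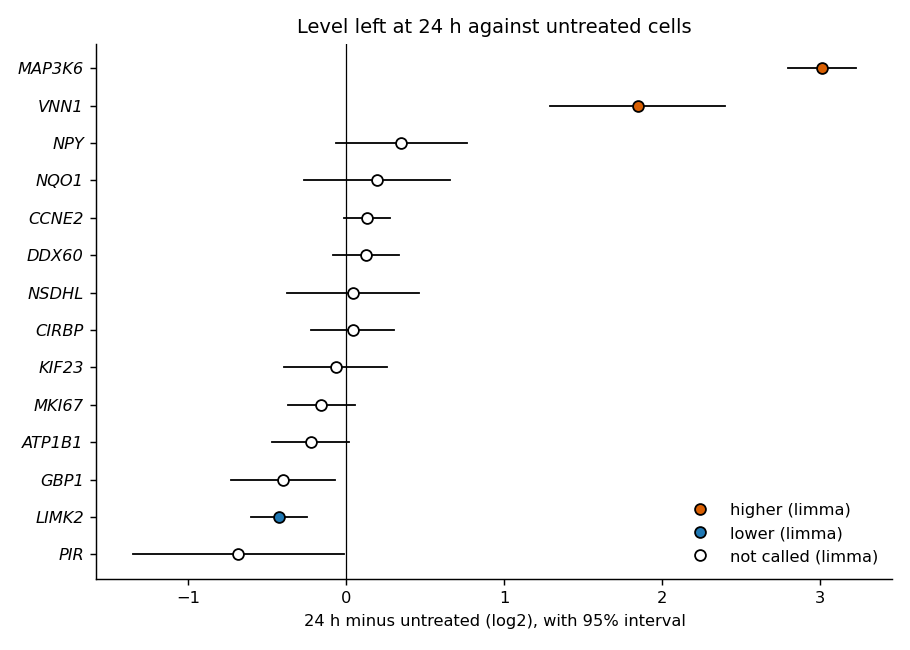
Difference between the 24 h mean and the untreated mean (x axis, log2) for the 14 genes (y axis), with the 95% interval from limma. Filled points passed at a Benjamini-Hochberg adjusted p below 0.05, with MAP3K6 (3.01) and VNN1 (1.84) higher and LIMK2 (−0.42) lower; white points did not pass in this fit without a block, of which PIR, GBP1 and CCNE2 passed with the run as a block.

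ATP1B1 encodes the beta subunit that brings the sodium-potassium pump to the membrane. It read 6.82, 6.77, 7.34 and 7.02 on the untreated arrays, 7.45, 7.46, 7.63, 7.26 and 7.60 on the 8 h arrays, and 6.90, 6.62, 6.70, 6.64 and 6.97 on the 24 h arrays. Untreated replicate 3 was above 8 h replicate 4, and no 24 h value reached the 8 h values. The means were 6.99 ± 0.26 (SD, n = 4), 7.48 ± 0.15 (SD, n = 5) and 6.76 ± 0.16 (SD, n = 5), and the 24 h difference of −0.22 did not pass (95% interval −0.47 to 0.02, adjusted p = 0.147 in limma). ATP1B3, another beta subunit, differed by 0.04 at 8 h and was higher by 0.43 at 24 h (SE 0.05, adjusted p = 5.45e-06 in limma).

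NPY, the gene of neuropeptide Y, read 5.52, 5.23, 5.27 and 5.57 on the untreated arrays, 6.59, 6.87, 5.74, 5.82 and 5.91 on the 8 h arrays, and 5.73, 5.96, 5.83, 5.74 and 5.48 on the 24 h arrays. The 8 h values formed a high pair in runs 1 and 2 and a low trio just above the untreated arrays, and they overlapped the 24 h values. Within runs the 8 h minus untreated difference ranged from 0.34 to 1.64, and in 1 of 5 runs the 24 h array was above the 8 h array. The 8 h mean was 6.19 ± 0.51 (SD, n = 5), against 5.40 ± 0.17 (SD, n = 4) before treatment and 5.75 ± 0.18 (SD, n = 5) at 24 h. The 24 h difference of 0.35 did not pass (95% interval −0.06 to 0.76, adjusted p = 0.180 in limma), although it did with the 8 h arrays left out of the fit (adjusted p = 0.0186 in limma).

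GBP1, a GTPase, and DDX60, a helicase of antiviral RNA sensing, are both known as interferon-induced genes. Interferon acts through the ISRE, a promoter element whose core was searched here as TTCNNTTTC or its reverse complement. That core occurred in 3 of 12 member genes with a promoter in RefSeq (GBP1, DDX60 and MKI67) and in 6.85% of 9562 promoters of measured genes, from 250 bases before to 50 after the start. The element was searched after the data were seen, and a match is a description of letters, not of binding. The 250 bases before the start are shown for GBP1 (GRCh38.p14, chr1:89065209-89065458, minus strand) and DDX60 (GRCh38.p14, chr4:168318753-168319002, minus strand) from RefSeq, since they are the 2 interferon-linked members. The core is in capitals.
GBP1: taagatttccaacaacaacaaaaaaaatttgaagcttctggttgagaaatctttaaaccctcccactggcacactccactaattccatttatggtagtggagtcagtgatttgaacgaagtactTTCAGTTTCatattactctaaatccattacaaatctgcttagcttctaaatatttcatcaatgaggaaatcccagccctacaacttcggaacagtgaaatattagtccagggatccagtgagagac
DDX60: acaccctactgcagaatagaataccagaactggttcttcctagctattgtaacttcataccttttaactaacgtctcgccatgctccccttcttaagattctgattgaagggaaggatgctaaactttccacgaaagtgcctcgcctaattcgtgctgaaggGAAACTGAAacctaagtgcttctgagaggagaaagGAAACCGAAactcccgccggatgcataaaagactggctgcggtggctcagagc
GBP1 holds the core from 126 to 118 bases before the start, and DDX60 holds it from 88 to 80 and from 53 to 45 bases before it. GBP1 also holds it, as GAAAAAGAA, in the searched bases after the start, which are not shown.

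GBP1 read 7.43, 7.44, 7.60 and 8.14 on the untreated arrays, 7.98, 8.30, 7.80, 8.33 and 8.33 on the 8 h arrays, and 7.18, 7.05, 7.14, 7.30 and 7.61 on the 24 h arrays. Untreated replicate 4 was above 8 h replicates 1 and 3, and all 24 h values lay below all 8 h values. The means were 7.65 ± 0.33 (SD, n = 4), 8.14 ± 0.24 (SD, n = 5) and 7.26 ± 0.22 (SD, n = 5). The 24 h mean differed from the untreated mean by −0.40 (95% interval −0.73 to −0.07) and just missed the threshold (limma with Benjamini-Hochberg adjusted p = 0.0503), while with the run as a replicate block it was at −0.43 and passed (adjusted p = 0.00358 from limma).

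DDX60 read 6.84, 6.87, 6.86 and 7.21 on the untreated arrays, 7.50, 7.57, 7.57, 7.45 and 7.43 on the 8 h arrays, and 6.99, 6.84, 7.31, 7.0 and 7.21 on the 24 h arrays. The 8 h arrays lay above all others. The means were 6.94 ± 0.18 (SD, n = 4), 7.50 ± 0.07 (SD, n = 5) and 7.07 ± 0.19 (SD, n = 5), and the 24 h difference of 0.13 did not pass (adjusted p = 0.349 in limma). Of 23 measured genes of an interferon response list, 3 were at least 0.4 higher at 8 h and 2 at least 0.4 lower at 24 h than at 8 h (IFI44 and OAS3), with a list median of −0.13 at 8 h. At 24 h, 8 were higher, 5 lower and 10 did not pass. The list genes furthest from untreated cells at 24 h were MX1 and ISG20 above and IFIT1 below. MX1, an antiviral GTPase gene, differed by 1.53 at 8 h and was higher at 24 h (difference 3.04, SE 0.18, adjusted p = 6.94e-10 in limma), and ISG20, an antiviral exonuclease gene, by 2.16 and 2.68 (SE 0.11, adjusted p = 6.06e-12 in limma). IFIT1, an antiviral gene, differed by −1.07 at 8 h and was lower at 24 h (difference −1.14, SE 0.13, adjusted p = 1.65e-06 in limma).

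CIRBP encodes an RNA-binding protein that is induced by mild cold and binds mRNA. It read 10.45, 10.49, 10.48 and 11.04 on the untreated arrays, 11.09, 10.98, 11.25, 11.09 and 11.18 on the 8 h arrays, and 10.49, 10.43, 10.84, 10.65 and 10.90 on the 24 h arrays. Untreated replicate 4 alone among untreated arrays reached the 8 h values, and all 24 h values lay below them. The means were 10.62 ± 0.28 (SD, n = 4), 11.12 ± 0.10 (SD, n = 5) and 10.66 ± 0.21 (SD, n = 5), and the 24 h difference of 0.04 did not pass (95% interval −0.22 to 0.30, adjusted p = 0.833 in limma). RBM3, the other well-known cold-inducible RNA-binding protein, was at 11.39, 11.74 and 11.38 in the group means and missed both thresholds, with differences of 0.35 and 0.37.

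The last 3 genes act in the cell cycle. CCNE2 encodes cyclin E2, which activates CDK2 at entry into S phase. MKI67 encodes a proliferation marker that coats mitotic chromosomes, and KIF23 a kinesin of the central spindle needed to divide the cell. The CHR element (TTTGAA or TTCGAA) and the CCAAT box are known from promoters of mitotic genes, and both were searched on both strands. CCNE2 was not among the 12 members with a promoter, so no motif was searched in it. CHR occurred in 3 of the 12 (GBP1, MKI67 and KIF23) and in 12.4% of all promoters, and CCAAT in 5 of the 12 (ATP1B1, MKI67, CIRBP, KIF23 and NSDHL) and in 37.3%. The 250 bases before the start are shown for KIF23 (GRCh38.p14, chr15:69414099-69414348, plus strand) and MKI67 (GRCh38.p14, chr10:128126424-128126673, minus strand) from RefSeq, as the mitotic members, with CHR and the reverse complement of CCAAT in capitals.
KIF23: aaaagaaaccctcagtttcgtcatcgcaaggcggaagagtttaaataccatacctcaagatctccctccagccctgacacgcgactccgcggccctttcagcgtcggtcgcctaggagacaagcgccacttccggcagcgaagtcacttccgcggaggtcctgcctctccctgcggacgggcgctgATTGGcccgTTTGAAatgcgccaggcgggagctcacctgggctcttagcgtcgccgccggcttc
MKI67: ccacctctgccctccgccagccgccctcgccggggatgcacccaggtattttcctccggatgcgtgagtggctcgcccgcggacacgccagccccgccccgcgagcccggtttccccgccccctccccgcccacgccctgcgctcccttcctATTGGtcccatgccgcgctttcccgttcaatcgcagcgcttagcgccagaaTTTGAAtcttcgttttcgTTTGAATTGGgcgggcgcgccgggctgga
In KIF23 the box lies from 64 to 60 and the CHR from 55 to 50 bases before the start. MKI67 holds CHR from 47 to 42 and from 29 to 24 bases before it, and boxes from 98 to 94 and from 24 to 20, the last of which overlaps the second CHR by 1 base. Among other motifs, none of the 12 held the E2F words TTTCCCGC, TTTGGCGC or TTTCGCGC (4.12% of promoters), 2 held the CRE core TGACG (31.3%), and 2 held the GR-binding core AGAACA or GGAACA (MAP3K6 and GBP1, 20.9%). The full GR palindrome occurred in none of the 12 and in 1 of 9562 promoters (0.0105%). With so rare a word, nothing is read from its absence in the 12. Bases further than 250 before or 50 after the start were not searched. The antioxidant element core TGACNNNGC, also searched later, occurred in PIR, MKI67 and KIF23 (14.9% of promoters).

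MKI67 read 10.61, 10.71, 10.36 and 10.51 on the untreated arrays, 11.03, 10.91, 10.84, 11.09 and 11.16 on the 8 h arrays, and 10.44, 10.47, 10.60, 10.10 and 10.35 on the 24 h arrays. The 8 h arrays lay above all others, and the 24 h and untreated arrays overlapped. The means were 10.55 ± 0.15 (SD, n = 4), 11.00 ± 0.13 (SD, n = 5) and 10.39 ± 0.19 (SD, n = 5), with a 24 h difference of −0.16 that did not pass (95% interval −0.37 to 0.06, adjusted p = 0.255 in limma).

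KIF23 read 9.02, 8.90, 9.33 and 9.63 on the untreated arrays, 9.36, 9.55, 9.67, 9.84 and 9.79 on the 8 h arrays, and 8.92, 9.0, 9.51, 8.99 and 9.37 on the 24 h arrays. Untreated replicate 4 and 24 h replicates 3 and 5 stood within the 8 h values. Within runs the 8 h array exceeded the untreated array by 0.16 to 0.64, a range from the values that chose the gene. The means were 9.22 ± 0.32 (SD, n = 4), 9.64 ± 0.19 (SD, n = 5) and 9.16 ± 0.27 (SD, n = 5), and the 24 h difference of −0.06 did not pass (adjusted p = 0.798 in limma).

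CCNE2 read 10.47, 10.41, 10.45 and 10.39 on the untreated arrays, 10.88, 11.08, 11.16, 10.82 and 11.02 on the 8 h arrays, and 10.60, 10.57, 10.60, 10.48 and 10.56 on the 24 h arrays. The 3 groups did not overlap, though the lowest 24 h value, 10.48, stood beside the highest untreated value, 10.47. The means were 10.43 ± 0.03 (SD, n = 4), 10.99 ± 0.14 (SD, n = 5) and 10.56 ± 0.05 (SD, n = 5). The 24 h difference of 0.13 did not pass (95% interval −0.01 to 0.28, adjusted p = 0.152 in limma), whereas with the run as a replicate block it was 0.16 and passed (adjusted p = 0.0380 from limma). Its paralog CCNE1, which encodes cyclin E1, differed by −0.16 at 8 h and was lower at 24 h (difference −2.40, SE 0.09, adjusted p = 2.79e-12 in limma).

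CCNE2 was the only member on a list of DNA replication and S phase, of which 49 of 50 genes were measured. It was also the only gene of the list at least 0.4 higher at 8 h, while 44 of the 49 (89.8%) were at least 0.4 lower at 24 h than at 8 h. The list's medians were −0.32 for 8 h minus untreated, 1.59 for 8 h minus 24 h and −1.93 for 24 h minus untreated. At 24 h, 46 of the 49 were lower than in untreated cells, among them CDC6 (−3.63), MCM4 (−3.04), MCM2 (−2.76) and PCNA (−2.47), and 3, CCNE2 included, did not pass.

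MKI67 and KIF23 stood among 137 measured genes of 6 lists of mitosis. Of these, 5 (3.65%) were at least 0.4 higher at 8 h, near the 5.68% of all genes, and 65 (47.4%) at least 0.4 lower at 24 h than at 8 h. The 8 h mean was the highest of the 3 in 80 of the 137 (58.4%), against 18.8% of all genes, with medians of 0.08 over untreated cells and 0.37 over 24 h. At 24 h, 69 of the 137 were lower than in untreated cells, 8 higher, and 60, MKI67 and KIF23 among them, did not pass. With 0.3 in place of 0.4 for both steps, 37 genes met the rule, and 9 of these were on a mitosis list: MKI67, KIF23, ECT2, KIF4A, ESPL1, TACC3, CDC25C, MELK and DLGAP5. CDC25C, a phosphatase that starts mitosis, differed by 0.33 and 1.04 on the steps and was lower at 24 h than in untreated cells (difference −0.71, SE 0.12, adjusted p = 0.000163 in limma). MELK, a kinase gene of proliferating cells, had steps of 0.31 and 1.02 and was lower as well (difference −0.71, SE 0.10, adjusted p = 2.82e-05 in limma). These lists were written with earlier results of the data known.

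**Figure D4:**
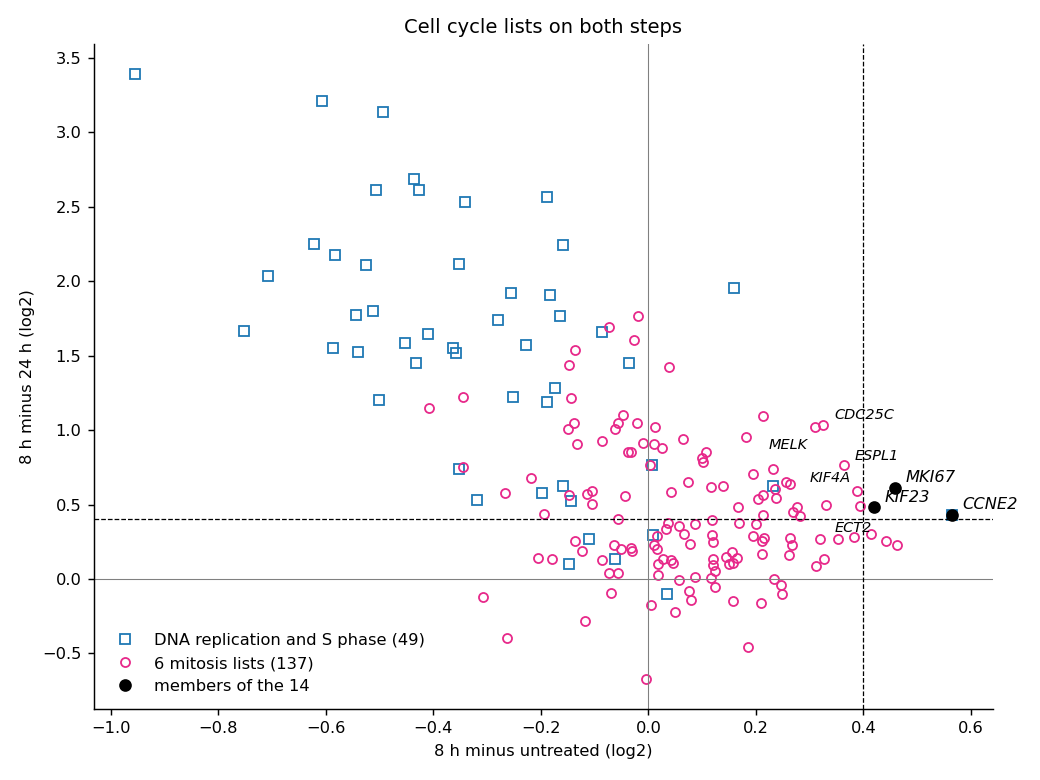
Genes of the DNA replication and S phase list (squares, 49) and of 6 mitosis lists (open circles, 137), with the 8 h minus untreated difference on the x axis and the 8 h minus 24 h difference on the y axis, both in log2 units; dashed lines mark 0.4. The replication genes lie mostly left of 0 and high, the mitosis genes around and right of 0, and the black points are MKI67, KIF23 and CCNE2.

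On known targets of glucocorticoids, none of the 14 was listed. Of the 30 measured genes of that list, 21 (70%) were at least 0.4 higher at 8 h and 2 at least 0.4 lower at 24 h than at 8 h, both metallothioneins (MT1X and MT2A). FKBP5, a GR chaperone gene, was at 5.09, 7.58 and 7.88 in the group means, and TSC22D3, which encodes an anti-inflammatory mediator, at 10.31, 13.00 and 13.39. Their 24 h means lay above the 8 h means, an order that the rule shuts out for the 14.

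Probe sets that the rule did not use give a further reading of the same arrays. They carry the same RNA and the same differences between arrays, so they bear on the probes and not on the time course. Of the 14 genes, 8 had 12 further probe sets, and all 12 were highest at 8 h, against 18.5% of the 7107 further probe sets of all genes. In 11 of them both steps were at least 0.4, against 0.225%. The 3 further probe sets of MKI67 had steps of 0.51, 0.59 and 0.63 over untreated cells and of 0.58, 0.61 and 0.63 over 24 h. ATP1B1 reached 0.81 and 0.88 on its other probe set, CCNE2 0.57 and 0.61, CIRBP 0.52 and 0.50, GBP1 0.45 and 0.86, and NSDHL 0.44 and 0.43. NQO1 gave 0.75 and 0.74 on one and 0.58 and 0.41 on another. LIMK2 gave 0.53 and 0.81 on one and 0.07 and 0.12 on the other. VNN1, PIR, MAP3K6, NPY, DDX60 and KIF23 had a single probe set.

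**Figure D5:**
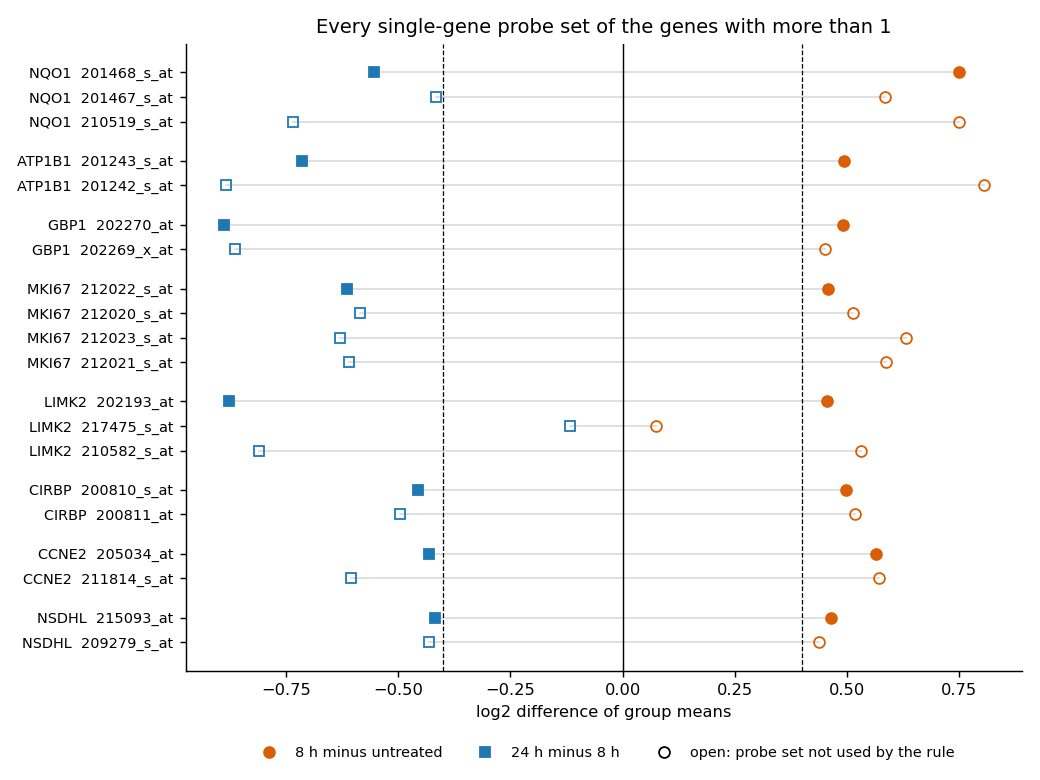
Differences of group means (x axis, log2) for every single-gene probe set of the 8 genes with more than 1 (y axis): circles are 8 h minus untreated, squares 24 h minus 8 h, filled where the rule used the probe set and open where it did not; dashed lines mark 0.4 in each direction. All circles lie right of 0 and all squares left. A dim probe set of LIMK2 (0.07 and −0.12) lies inside the dashed lines on both.

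Within runs, 12 of the 14 genes had the 8 h array highest in all 4 complete runs, all but NPY and NSDHL, against 2.12% of all genes, and 13 had the 24 h array below the 8 h array in all 5 runs, all but NPY, against 20.2%. These are the arrays and contrasts that chose the genes, so the counts describe the members and support nothing. When the rule was applied without the arrays of 1 run, the genes so chosen could be read in the run left out. The 8 h array was highest there for 15 of 17 genes in run 1, 12 of 14 in run 2, 16 of 20 in run 3 and 17 of 26 in run 4. Over all genes the shares with the 8 h array highest were 27.8%, 26.8%, 20% and 19.1%. Both steps reached 0.4 in the run left out for 10, 7, 3 and 5 of these genes, and for 1.26%, 0.836%, 0.368% and 0.318% of all genes. Of the genes so chosen, 12, 9, 12 and 14 were among the 14. The rule was set with results of all arrays known, and the replicates are not stated to be separate cultures. The run left out is therefore no independent support, and these counts are a description with no test.

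Untreated replicate 4 stood apart for these genes. It was the highest untreated array for 10 of the 14, compared with 22.6% of all genes, and it came within the 8 h values for PIR, NQO1, NSDHL, GBP1, CIRBP and KIF23. Without it, the 8 h minus untreated difference of PIR was 1.01 in place of 0.68, that of NQO1 1.01 in place of 0.75, that of GBP1 0.65 in place of 0.49, that of CIRBP 0.64 in place of 0.50 and that of KIF23 0.56 in place of 0.42. Those of MKI67 (0.44) and CCNE2 (0.55) were slightly smaller. All 14 genes met the rule without this array, and 29 genes did so in all. In run 4 the 8 h array was the highest of its group for 4 of the 14 (15.7% of all genes) and the 24 h array for 6 (15.8%). In run 3 the 8 h array was highest for 5 (17.8%) and the 24 h array for 6 (17.2%). What sets untreated replicate 4 or its run apart was not tested.

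The members just inside the threshold of 0.4, by the smaller of both steps, were NSDHL (0.42), KIF23 (0.42), DDX60 (0.43) and CCNE2 (0.43). Just outside were ECT2 (0.39), which encodes an exchange factor of cytokinesis, KIF4A (0.39), a kinesin gene of mitosis, TTF2 (0.38), a transcription termination factor gene, and CCT6B (0.37), a chaperonin subunit gene.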

How the data were processed

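The authors corrected, normalized and summarized the arrays by RMA in the affy package (versions not stated) and deposited log2 values for 22277 probe sets. They left out 1 untreated replicate after quality control. Their methods name Agilent hgu133a2 arrays, whereas the labels name an Affymetrix protocol. The processing can narrow differences between dim values. The series matrix was used as deposited. Of its probe sets, 19070 are annotated with exactly 1 gene, and the probe set with the highest mean over all 14 arrays stood for each of 11963 genes. Its groups and runs came from the sample labels. The members and lists were chosen with earlier results of these data known, and 8 of the lists and 2 of the motifs after the values had been examined.

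The rule was applied to group means in Python 3.11.15 (pandas 2.3.3). The 24 h arrays were compared with the untreated arrays by limma 3.58.1 (lmFit and eBayes, R 4.3.3) on all 14 arrays without a block, Benjamini-Hochberg adjusted over all 11963 genes and called below 0.05. The code was tested on simulated data. No variance filter was used in the main setting, although the methods name one at 0.5 and average the probe sets of a gene; this is an alternative. Across genes, residuals of 2 arrays of different groups that shared a run had r from 0.291 to 0.532 (13 pairs). Pairs with the same title number had r from 0.224 to 0.532 (13 pairs). Pairs that shared neither had r from −0.477 to 0.473 (50 pairs), a range that overlaps the others. The runs, read from marks in the sample descriptions, were taken to pair the samples. The main fit does not use this pairing, and the fit with the run as a block does. As the members number no more than 40, all are named, with the 4 genes just outside; genes of a pathway named beside them were chosen after their values were seen. Alternatives were other summaries, normalizations, blocks, filters, thresholds and left-out arrays and runs. Promoter sequences are from RefSeq.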

Additional observations from a re-analysis of the deposited data

Results flagged for a closer look

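Among 54 groups of 4 or 5 arrays of the 14 genes and the 4 just outside, 3 held an array far from the others, where chance alone gives about 1 in 20. VNN1 was highest in 24 h replicate 3 at 5.83, with the next array at 4.99. CIRBP was highest among untreated arrays in replicate 4 at 11.04, with the next at 10.49, and DDX60 was highest in the same replicate at 7.21, with the next at 6.87. Without untreated replicate 4 the 8 h minus untreated difference was 0.64 for CIRBP and 0.64 for DDX60.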

How the results depend on the processing

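The choice of genes depends on thresholds and single arrays. From 14 genes, the count moved to 37 with both steps at 0.3 and to 4 with 0.5 (VNN1, PIR, NQO1 and MAP3K6), to 16 and 11 with a floor of 5 or 7 at 8 h, to 20 with group medians and to 21 with metallothioneins kept. It was 13 with the mean over probe sets, 13 with arrays shifted to the same median and 15 with cyclic loess. Leaving out 1 array gave 11 to 29 genes, with 29 without untreated replicate 4, and leaving out runs 1 to 5 in turn gave 17, 14, 20, 26 and 12, of which 12, 9, 12, 14 and 12 were among the 14. Without run 2, DDX60, GBP1, KIF23, NPY and NSDHL no longer met the rule, and with group medians MAP3K6, NPY and NSDHL did not. PIR, NQO1, MAP3K6, ATP1B1 and GBP1 met the rule whichever single array was left out, while NSDHL did in 7 of 14 cases, KIF23 in 10, NPY in 11 and each of the others in 13.

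With the run as a replicate block the rule kept all 14 genes, and 3 were higher at 24 h (CCNE2 added) and 3 lower (GBP1 and PIR added), as calls over all genes grew too (2754 higher and 2838 lower, from 2394 and 2455). With the title number as a replicate block 14 genes met the rule, KIF4A in place of KIF23, with 2 higher and 4 lower (ATP1B1, GBP1 and PIR added). Over all genes that block gave 2692 higher and 2785 lower. The run as a random block gave 2 higher and 3 lower, and over all genes 2697 higher and 2789 lower. The mean over probe sets, the median shift, cyclic loess, the variance filter and a trended and robust eBayes each gave 2 higher and 2 lower (GBP1 added). In that order, the calls over all genes were 2336, 2102, 2411, 2067 and 2393 higher. Those lower were 2505, 2828, 2467, 2203 and 2467, with 6794 genes tested under the variance filter. With dim genes left out 1 was higher and 2 lower, since VNN1 was not tested. Of the 8088 genes in that fit, 2312 were higher and 2350 lower. Using only untreated and 24 h arrays gave 3 higher (NPY added) and 1 lower, and over all genes 2348 higher and 2390 lower. Leaving out 1 array gave 2 higher in each case and 1 to 3 lower: GBP1 passed without untreated replicate 1 or 2, 8 h replicate 3 or 24 h replicate 5, and PIR without 24 h replicate 5 (−0.84, adjusted p = 0.0497 in limma). Over all genes, the fits without 1 array gave 2179 to 2411 higher and 2279 to 2485 lower. MAP3K6 and LIMK2 kept their calls in all the alternative fits from which calls were read. The fits without a whole run served for the rule only, and no 24 h calls or differences were read from them. TTF2, outside the rule, was lower at 24 h (difference −0.25, adjusted p = 0.0260 in limma), a call lost without untreated replicate 3 or 4 or 24 h replicate 2. In the fits that were read, no called difference of the 14 genes or the 4 just outside changed sign. The uncalled 24 h differences of CIRBP, KIF23, NSDHL and CCT6B did under some settings, that of KIF23 to 0.07 and of CCT6B to 0.14 without untreated replicate 4, and that of NSDHL to as low as −0.14, without untreated replicate 1. The arrays give no count of molecules, so depth sets no limit here, and signal near background does so for VNN1.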

Other observations

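Of the 24 lists fixed first, 20 held none of the 14 genes. Among 27 measured immediate early genes, 5 were at least 0.4 higher at 8 h than in untreated cells and none at least 0.4 lower at 24 h than at 8 h. Of 18 cell cycle inhibitors and genes of quiescence, 6 were at least 0.4 higher at 8 h, none stepped down by 24 h, and at 24 h 12 were higher, 1 was lower and 5 did not pass in limma. Of 18 heat shock genes, 2 were at least 0.4 higher at 8 h and 6 at least 0.4 lower at 24 h than at 8 h.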
